A study of Mus musculus with 2 samples.

Results

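Ccr7 (ENSMUSG00000037944) is 1 of the 31053 features counted in both deposited matrices, and its row in each was the subject here. The gene lies on the minus strand of chromosome 11, from 99144196 to 99155077 (GRCm38), where GENCODE vM21 gives it 1 transcript with 3 exons and 0 overlapping genes. Its product, CCR7, is the chemokine receptor that senses CCL19 and CCL21, the ligands displayed by lymphatic vessels and lymph nodes. Dendritic cells that mature in a tissue raise CCR7, enter lymphatic vessels and travel to the draining lymph node, with or without infection. Fscn1 encodes fascin, an actin-bundling protein that marks fully mature dendritic cells and helps them form dendrites, and it served as the marker of that state.

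The data are 2 single-cell libraries of lung dendritic cells from C57BL/6 mice, 8 to 10 weeks of age. The first holds conventional dendritic cells that a flow sorter took as XCR1-positive (the cDC1 sort), the other those it took as CD172a-positive (the cDC2 sort). No treatment or genetic change is given in the labels, and the sources used here do not give the number of mice. The cDC1 sort held 2574 cells after filtering, with 35071861 unique molecular identifiers (UMIs, 1 per captured transcript) and a median of 12866 per cell. The cDC2 sort held 2835 cells, with 38613693 UMIs and a median of 12655. With 1 library per sort there is no replicate check and no test, so each interval is a 95% interval that covers counting error only, and a 2-fold difference is a rule of size. Cells were grouped into 18 clusters without using Ccr7, 12 of them dendritic. Of the cells in dendritic clusters, 2493 of 2544 in the cDC1 sort and 2274 of 2328 in the cDC2 sort lay in clusters that do not carry the markers of the other sort, called own-sort clusters from here on. The libraries shared 6 cell barcodes.

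Ccr7 was more abundant in the cDC2 sort. Levels are in CPM, the UMIs of the gene per 1e6 UMIs in all. Ccr7 stood at 698 CPM (690 to 707, from 26968 UMIs) there and 232 CPM (227 to 237, from 8131 UMIs) in the cDC1 sort, a 3.01-fold difference (2.94 to 3.09). In own-sort clusters, a choice made after seeing the data, the levels were 798 and 196 CPM, a 4.07-fold difference. Fscn1 went the other way, at 73.4 CPM in the cDC1 sort and 44.7 CPM in the cDC2 sort, 1.64-fold higher in the former (1.54 to 1.75). By summed UMIs, the library with more Ccr7 was thus the one with less of the maturation marker. The share of cells with at least 1 Fscn1 UMI was not lower there, at 6.42% (5.55 to 7.39) against 5.87% in the cDC1 sort (4.99 to 6.84).

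At equal depth the difference lay in how many cells carried Ccr7 rather than in how much the richest cells carried. Each cell was thinned at random to 5000 UMIs, which left out 71 shallower cells of the cDC1 sort and 135 of the cDC2 sort and kept 2503 and 2700. Ccr7 was absent from 86.5% of thinned cDC1-sort cells (2166) and from 46.1% of thinned cDC2-sort cells (1244). A single Ccr7 UMI was seen in 106 and 306 cells, and exactly 2 in 44 and 189. Before thinning, 18.3% of cDC1-sort cells (470) and 63.8% of cDC2-sort cells (1810) had at least 1 Ccr7 UMI.

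The 2 libraries also differed in the shape of the distribution above that level. In the cDC1 sort 62 cells had 2 or 3 UMIs, 39 had 4 to 7, 53 had 8 to 15 and 77 had 16 or more. The steps widen upward, and the fewest positive cells lay in the middle one. The same steps of the cDC2 sort held 341, 353, 317 and 139 cells, with the fewest in the highest one. Cells with at least 2 UMIs, called Ccr7-positive from here on, made up 9.23% of the cDC1 sort (8.12 to 10.4) and 42.6% of the cDC2 sort (40.7 to 44.5), a 4.62-fold difference. Those cDC1-sort cells were the richer ones, with a mean of 12.1 UMIs and a median of 10 (quartiles 3 and 18), against a mean of 8.16 and a median of 6 (quartiles 3 and 11). The highest cell had 43 Ccr7 UMIs in each library. The variance of Ccr7 over thinned cells was 17.6 times its mean in the cDC1 sort and 10.1 times in the cDC2 sort.

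**Figure D1:**
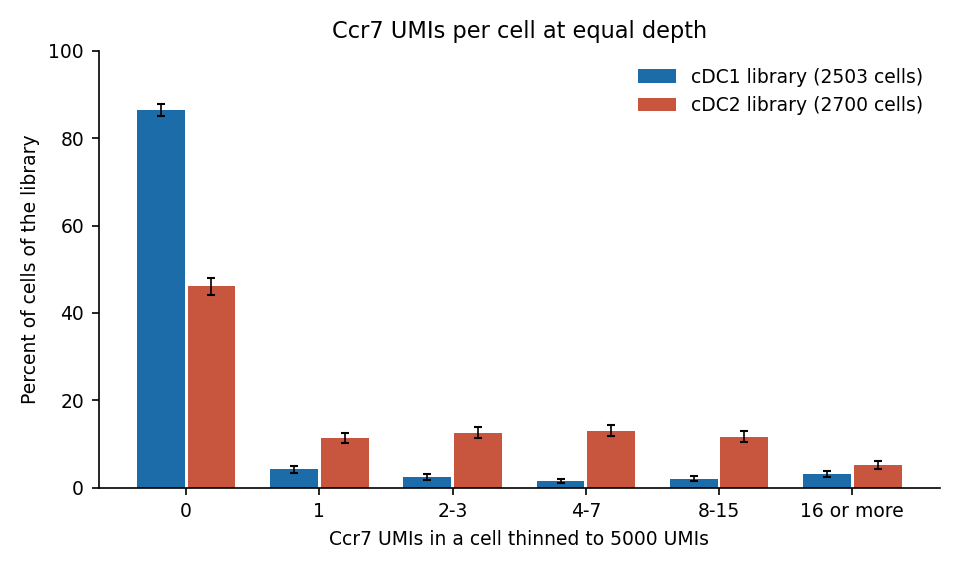
Share of cells (percent) in each step of Ccr7 UMIs after thinning to 5000 UMIs, per library. Bars carry exact binomial 95% intervals that cover counting error only. The cDC2 sort has more cells in every step from 1 UMI upward, by 13.1% against 1.56% at 4 to 7 UMIs and by only 5.15% against 3.08% at 16 or more.

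Ccr7 without Fscn1 was common, and 2 or more Fscn1 UMIs without Ccr7 were not seen. All 75 cDC1-sort cells and all 65 cDC2-sort cells with 2 or more thinned Fscn1 UMIs were Ccr7-positive, which allows a true share down to 95.2% and 94.5%. Their lowest Ccr7 values were 3 and 5 UMIs and their medians 19 and 22. The same counts, read the other way, give 0 of 2166 and 0 of 1244 cells without Ccr7 that had 2 or more Fscn1 UMIs. This allows shares of up to 0.170% and 0.296% and is not a further observation. Of cells with exactly 1 Fscn1 UMI, 22 of 32 and 14 of 52 had no Ccr7. Among Ccr7-positive cells, Fscn1 was at 0 in 63.6% of the cDC1 sort (147 of 231) and in 91.7% of the cDC2 sort (1054 of 1150).

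Mean Ccr7 was higher in each higher step of Fscn1 in both libraries. In the cDC1 sort the mean was 0.551 Ccr7 UMIs in the 2396 cells with Fscn1 at 0, 3.34 with 1 Fscn1 UMI (32 cells), 14.8 with 2 or 3 (8 cells), 15.4 with 4 to 7 (12 cells) and 21.1 with 8 or more (55 cells). For the cDC2 sort the mean was 3.09 in the 2583 cells at 0, 6.83 with 1 (52 cells), 15 with 2 or 3 (17 cells), 22.1 with 4 to 7 (14 cells) and 23.4 with 8 or more (34 cells). The median did not follow at every step, at 25 and 23.5 in the last 2 steps of the cDC2 sort and at 0 with 0 or 1 Fscn1 UMI in the cDC1 sort. The libraries were far apart among cells without Fscn1 and close to each other in the highest Fscn1 step.

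The share of cells with Fscn1 also depended on the Ccr7 level, and differently by library. In the cDC1 sort 2 or more Fscn1 UMIs were found in 1.61% of cells with 2 or 3 Ccr7 UMIs, 15.4% at 4 to 7, 35.8% at 8 to 15 and 63.6% at 16 or more (49 of 77). The cDC2 sort gave 0 of 341 cells, which allows up to 1.08%, then 1.13%, 5.68% and 30.9% (43 of 139). So a cell of the highest Ccr7 step had Fscn1 in most cases in the cDC1 sort and in a minority in the cDC2 sort. Among own-sort cells the share in the highest step of the cDC1 sort was 74.2%.

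**Figure D2:**
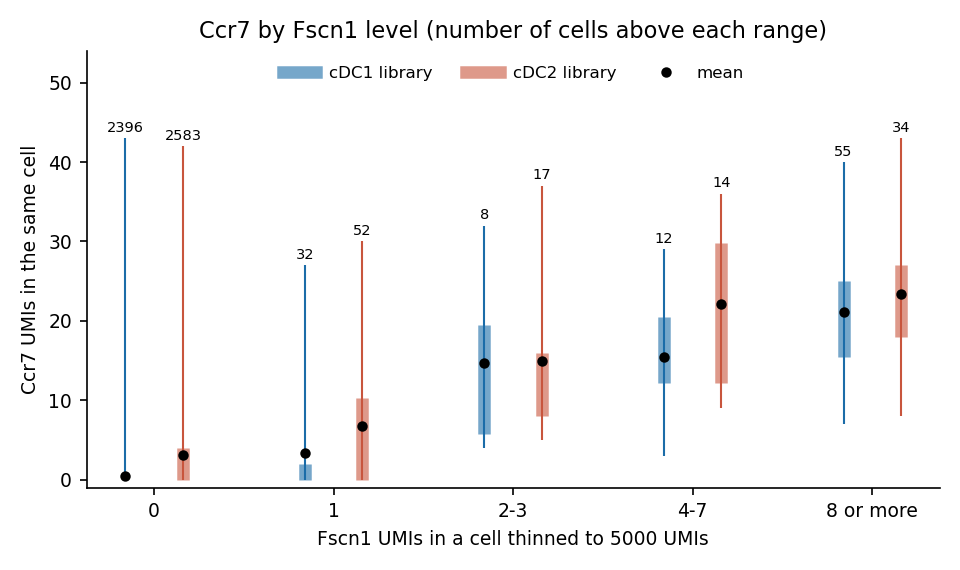
Thinned Ccr7 UMIs per cell by step of thinned Fscn1 UMIs, per library, with the number of cells in each step. The 2 libraries are far apart where Fscn1 is 0 (means 0.551 and 3.09) and overlap in the highest step (means 21.1 and 23.4).

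Ccr7 differed widely between clusters. Clusters with at least 30 cells of a library gave 19 cluster and library pairs, from 4.30 to 3388 CPM in the cDC1 sort and from 39.3 to 3685 CPM in the cDC2 sort. The mature DC-like cluster 11, led by Apol7c, Fscn1, Lad1, Cacnb3 and Nudt17, stood at the top in both, at 3388 CPM (114 cells) and 3685 CPM (80 cells). It held 64.2% of all Ccr7 UMIs of the cDC1 sort and 13.7% of those of the cDC2 sort. Its cells followed their sort, with Xcr1 at 82.5 CPM and Sirpa, the gene of CD172a, at 20.1 CPM in the cDC1 sort, and at 1 and 149 CPM in the cDC2 sort.

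Most Ccr7 of the cDC2 sort lay outside the mature cluster. Cluster 2, led by Arap2, Clec4n, Hilpda, Ankrd33b and Il7r, stood at 1325 CPM in 781 cells and held 49.7% of the library's Ccr7 UMIs, and 71.4% of its thinned cells were Ccr7-positive. Cluster 2 is cDC2-like by its markers, but the T cell marker Il7r is among its leading genes, and the cDC1-like cluster 14 likewise has the monocyte marker Plac8, so clusters are compared by number. Below it came cluster 8 (734 CPM), the cycling cluster 7 (542 CPM), the unnamed cluster 10 (287 CPM) and cluster 1 (231 CPM in 833 cells, 18.4% Ccr7-positive), which was led by Cd209a, Il1rl1 and Mrc1. A small B cell-like cluster of 37 cells stood at 654 CPM, above cluster 7, in a cell type that is known to use CCR7.

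Most Ccr7 of the cDC1 sort lay in the mature cluster. The next highest cluster of 30 or more cells was cluster 5, led by Havcr1, Sdcbp2, Cd207, Ly75 and Timd4, at 219 CPM in 365 cells, with 17.2% of thinned cells Ccr7-positive and 12.6% of the library's Ccr7 UMIs. The remaining cDC1-like clusters stood between 4.30 and 24.0 CPM, the cycling cluster 9 among them at 17.8 CPM. A further 11.2% of the library's Ccr7 UMIs came from 28 cells in the cDC2-like cluster 2, at 2203 CPM, with Xcr1 at 9.69 and Sirpa at 116 CPM, and 4.26% from 14 cells in cluster 7. Those cells had the sort genes of the other library, and counts that they move by much are also given for own-sort cells.

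Clusters of other cell types and the lowest dendritic clusters give a rough background. In cluster 4 of the cDC1 sort 0 of 492 thinned cells were Ccr7-positive, at most 0.747%, with a median of 12401 UMIs per cell before thinning. Of the cDC2 sort, 1 of 34 thinned nonclassical monocyte-like cells and 1 of 10 neutrophil-like cells were Ccr7-positive, with medians of 8431.5 and 2835 UMIs. These types stood at 93.7 and 45.2 CPM, from 32 and 8 UMIs. Any thinned Ccr7 UMI was seen in 4 of the 34 monocyte-like cells, with 6 in the 1 Ccr7-positive cell. Both levels thus rest on few cells and are only a rough guide to background in that library.

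**Figure D3:**
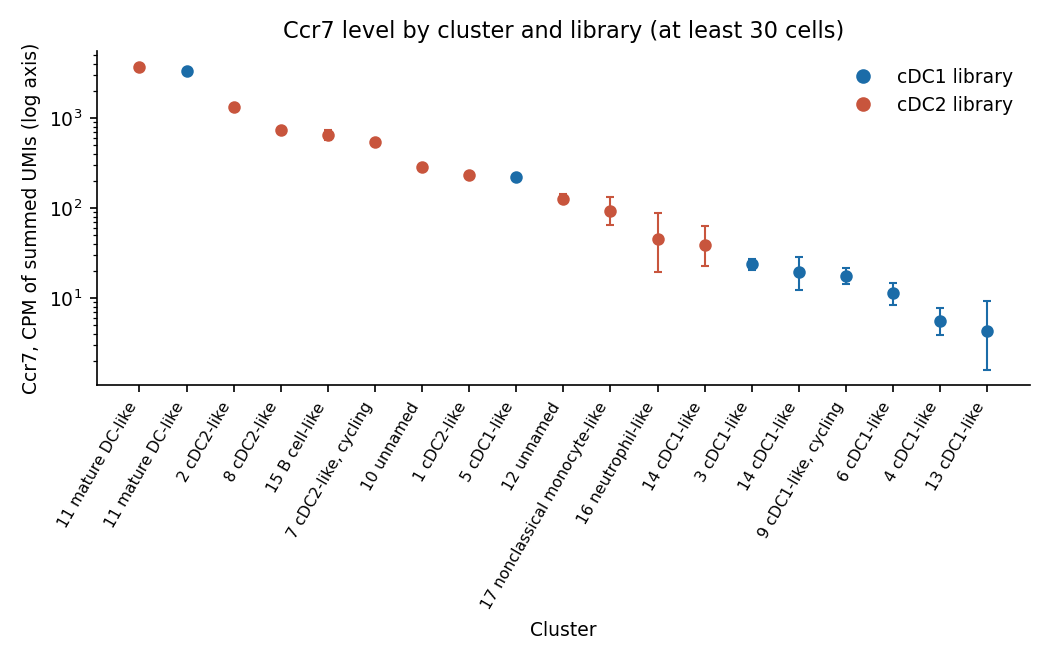
Ccr7 level (CPM, log axis) in each cluster with at least 30 cells of a library, with exact Poisson 95% intervals that cover counting error only. Cluster 11 leads both libraries, and the gap to the next cluster is far wider in the cDC1 sort (3388 to 219 CPM) than in the cDC2 sort (3685 to 1325 CPM).

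The 10 genes most like Ccr7 across these 19 pairs, by Pearson correlation of log2(CPM + 10) among 7074 genes, were Rab21 (0.94), Foxp4 (0.93), Cd40 (0.93), Ggta1 (0.92), Stat4 (0.92), Cflar (0.91), Phldb1 (0.91), Arl5c (0.91), Il21r (0.91) and Il4i1 (0.90). Cd40 encodes a costimulatory receptor, Stat4 a signal transducer of cytokine receptors and Il4i1 a secreted amino acid oxidase. The pairs come from 2 libraries and from clusters drawn with other variable genes, so the values are a description.  At a clustering resolution of 2, 6 of the 10 were again among the first 10.

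Genes that accompany Ccr7 without Fscn1 were sought among dendritic cells with Fscn1 at 0 after thinning, by comparing Ccr7-positive cells with cells without Ccr7. "Before Fscn1" is a short name for this comparison from here on. The order in time was not measured, and 29 of the Ccr7-positive cDC1-sort cells lay in the mature cluster. These were 141 and 2138 cells of the cDC1 sort and 971 and 930 of the cDC2 sort, with median depths of 13717 and 12872 UMIs and of 13376 and 12836 UMIs. Genes were measured at 20 CPM or more in either group, on all UMIs of the cells. At least 2-fold higher with Ccr7 were 317 of 4693 genes (6.75%) in the cDC1 sort and 49 of 4655 (1.05%) in the cDC2 sort. At least 2-fold lower were 235 (5.01%) and 105 (2.26%).

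The Ccr7-positive cells of this comparison were spread over other clusters than the cells without Ccr7. In the cDC1 sort 60 of the 141 lay in cluster 5, 29 in the mature cluster 11, 21 in cluster 2, 14 in cluster 3 and 9 in cluster 7, and 31 lay outside the clusters of their sort. The summed level of 10 cDC2 markers was 800 CPM in them and 118 CPM in cells without Ccr7, with all 7 measured markers at least 2-fold higher and 0 at a count of 0. With own-sort cells only (110 against 2124) the counts were 279 higher and 276 lower, of which 230 and 188 were among the genes above. Of the cDC2 sort, 534 of the 971 lay in cluster 2 and 148 in cluster 1, while 545 of the 930 lay in cluster 1, and own-sort cells gave 50 higher and 95 lower.

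Maturation genes accompanied Ccr7 in both libraries in cells with Fscn1 at 0. Of the 28 measured homeostatic and mature dendritic cell genes, 23 were at least 2-fold higher with Ccr7 and 0 lower in the cDC1 sort, and of 16 in the cDC2 sort, 8 were higher and 0 lower. Of these, 13 of the 28 and 5 of the 16 entered only through the Ccr7-positive cells, where they are high, so the counts partly restate the filter. Among all genes 6.75% and 1.05% were higher. Without the mature cluster 13 of 20 were higher in the cDC1 sort and 8 of 16 in the cDC2 sort. Il4i1 stood at 190 CPM with Ccr7 and 3.5 CPM without in the cDC1 sort, 54.3-fold higher (43.6 to 68.0), and at 108 and 30.4 CPM in the cDC2 sort, 3.57-fold higher (3.2 to 4). Cd63, a tetraspanin of endosomes, was 42.5-fold higher in the cDC1 sort (35.2 to 51.5) and 3.26-fold in the cDC2 sort (2.63 to 4.06). The protease inhibitor genes Serpinb6b (6.07-fold and 5-fold) and Serpinb9 (4.90-fold and 3.72-fold) and Stat4 (3.70-fold and 2.14-fold) were also higher in both.

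Chemokine genes that draw other leukocytes to dendritic cells were among the most abundant genes that accompanied Ccr7. Ccl22, whose product attracts regulatory T cells through CCR4, stood at 5436 CPM with Ccr7 and 774.5 CPM without in the cDC1 sort, 7.02-fold higher (6.86 to 7.18). For the cDC2 sort the levels were 2412 and 782.5 CPM, 3.08-fold higher (3.01 to 3.15). Ccl17, which signals through the same receptor, was 4.30-fold higher (4.22 to 4.38) and 2.52-fold higher (2.48 to 2.55). Ccl5 was 11.8-fold and 2.93-fold higher, with 32.3% of its cDC2-sort UMIs in 1 cell. Of the measured chemokine list, 6 of 9 genes were at least 2-fold higher and 0 lower in the cDC1 sort, and 4 of 10 were higher and 2 lower in the cDC2 sort. Among all genes 6.75% and 1.05% were higher and 5.01% and 2.26% lower. In the cDC1 sort 4 of the 9 entered only through the Ccr7-positive cells, where they are high, so that count partly restates the filter.

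These genes were graded over the Ccr7 steps. In Fscn1-0 cells of the cDC1 sort Ccl22 stood at 774.5, 1846, 2990, 4820, 7585 and 9432 CPM at 0, 1, 2 or 3, 4 to 7, 8 to 15 and 16 or more Ccr7 UMIs. In the cDC2 sort it stood at 782.5, 1168, 1724, 2263, 2924 and 3759 CPM. The 2 libraries began at nearly the same level and parted with each step. Il4i1 went from 3.5 to 374 CPM over the same steps in the cDC1 sort and from 30.4 to 236 CPM in the cDC2 sort. The steps above 0 rest on 24 to 103 cells in the cDC1 sort and 85 to 313 in the cDC2 sort.

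Genes of T cell contact and NF-kB signalling were also examined. Cd274, the gene of the checkpoint ligand PD-L1, was 8.86-fold higher in the cDC1 sort (7.14 to 11) and 2.95-fold higher in the cDC2 sort (2.56 to 3.42). Of the costimulation and checkpoint list, 4 of 14 measured genes passed 2-fold upward in the cDC1 sort and 1 of 12 in the cDC2 sort, with 0 lower in either. However, 4 of the 14 and 1 of the 12 entered only through the Ccr7-positive cells, where they are high. As many genes entered this way as were called higher, so the counts of this list may restate the filter in full. Cd40 and Cd80, which engage T cells directly, were 4.94-fold and 2.54-fold higher in the cDC1 sort, and 1.15-fold and 1.51-fold in the cDC2 sort. Of the NF-kB pathway list, 9 of 18 genes were higher in the cDC1 sort, among them Relb (3.11-fold), Nfkb2 (2.30-fold) and Bcl3 (3.42-fold), and 1 of 17 in the cDC2 sort, Tnip1 (2.16-fold), with 0 lower in either. On this list 2 of the 18 and 0 of the 17 entered only through the Ccr7-positive cells, so the first count partly restates the filter. More genes of any kind passed upward in the cDC1 sort (6.75% against 1.05%), and the difference between the libraries was not tested. Among own-sort cells 7 of 18 NF-kB genes and 5 of 14 costimulation genes were higher in the cDC1 sort, and within cluster 5 only 2 of 18 and 2 of 13. For all genes the higher shares were 5.98% among own-sort cells and 3.17% within cluster 5.

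Few genes that act on CCR7 itself passed 2-fold. Of 22 measured genes of CCR7 signalling, desensitisation and sensitising, 2 passed 2-fold upward in the cDC1 sort and 0 downward, and of 23 in the cDC2 sort 0 passed in either direction, shares near those of all genes (6.75% and 1.05% upward). St8sia4, whose enzyme adds the polysialic acid through which CCR7 responds to CCL21, stood at 379 CPM with Ccr7 and 179 CPM without in the cDC1 sort (2.12-fold), and at 273 and 172 CPM in the cDC2 sort (1.59-fold). Nr4a3, the gene of a nuclear receptor needed for CCR7-dependent migration, was 3.48-fold and 1.34-fold higher. Ramp3, which encodes a partner of the adrenomedullin receptor, was 3.79-fold higher in the cDC1 sort (3.44 to 4.17) and 3.09-fold higher in the cDC2 sort (2.87 to 3.33). The ligand genes Ccl19 and Ccl21a were not matched to a feature by symbol and are not analysed here, and 0 of the 3 decoy receptor genes matched passed the filter.

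Some tissue identity and immediate early genes were lower with Ccr7. Of 16 measured cDC1 identity genes in the cDC1 sort, 0 were at least 2-fold higher and 7 lower, and 3 of 16 were lower among own-sort cells and 0 of 15 within cluster 5. For all genes the lower shares were 5.91% among own-sort cells and 0.846% within cluster 5. Through the cells without Ccr7 alone, 1 of the 16 entered. Of 18 cDC2 identity genes in the cDC2 sort 2 were lower and 0 higher, and 0 were lower within cluster 1 or cluster 2. However, 2 of the 18 entered only through the cells without Ccr7, so the count of 2 lower may restate the filter in full. Within clusters 1 and 2 only 22 of 4570 and 10 of 4125 genes of any kind were lower. In the cDC1 sort 9 of 10 measured cDC2 identity genes were higher and 0 lower. Of the 10, 6 entered only through the Ccr7-positive cells, where they are high. Among own-sort cells of the cDC1 sort 4 were measured and 3 were higher. Sirpa (19.7-fold), Zeb2 (12.2-fold) and Mrc1 (11.2-fold) were under the filter in those own-sort cells. Tlr3, a sensor of double-stranded RNA, was 9.12-fold lower in the cDC1 sort (5.32 to 17.2). Naaa, which encodes a lysosomal acid amidase, stood in that sort at 577 CPM in cells without Ccr7 and at 36.2 CPM in the highest Ccr7 step. Naaa stood, for the cDC2 sort, at 196 CPM without Ccr7 and 87.5 CPM with it, 2.24-fold lower (2.10 to 2.40). Ccr2, the receptor of monocyte and pre-DC recruitment, was 3.07-fold and 2.71-fold lower. Summed classical monocyte markers, of which it is one, stood at 85.8 CPM with Ccr7 and 195 CPM without in the cDC1 sort, and at 152 and 313 CPM in the cDC2 sort, with 2 of 8 and 0 of 8 at 0 in the Ccr7-positive cells. Alveolar macrophage markers (128 against 261 CPM), nonclassical monocyte markers (605 against 1048 CPM) and interstitial macrophage markers (56.0 against 95.6 CPM) were also lower in the cDC2 sort. The part of such cells in the result was not tested. Of the immediate early and dissociation list, 6 of 19 genes were lower in the cDC1 sort and 6 of 20 in the cDC2 sort, with 0 higher in either. Of these, 1 of the 19 and 3 of the 20 entered only through the cells without Ccr7, where they are high, so the counts partly restate the filter. Among own-sort cells of the cDC1 sort 3 of 19 were lower. For all genes the shares were 5.01% and 2.26% lower and 6.75% and 1.05% higher (cDC1 and cDC2 sort).

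Egr1, a transcription factor gene induced within minutes of stimulation, was 7.31-fold lower with Ccr7 in the cDC1 sort (5.05 to 11) and 5.17-fold lower in the cDC2 sort (4.47 to 6.00). Egr3 was 4.03-fold and 3.11-fold lower. The heat shock genes Hspa1a (3.5-fold and 5.96-fold) and Hspa1b (2.20-fold and 10.0-fold) were lower as well, but they are near-identical copies between which the counting can split reads, and single cells held 17.0% to 22.2% of their UMIs. Inside cluster 5 of the cDC1 sort all 4 of these genes went the other way, with log2 ratios of 0.52 for Egr1, 0.92 for Egr3, 1.79 for Hspa1a and 2.16 for Hspa1b. Within cluster 2 of the cDC2 sort 0 of 15 measured genes of that list were lower, and Hspa1a and Hspa1b had log2 ratios of 0.24 and 0.22. Only 10 of all 4125 genes were lower there, so a count of 0 says little about the list. Such genes respond to tissue dissociation, whose part in the result was not tested.

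**Figure D4:**
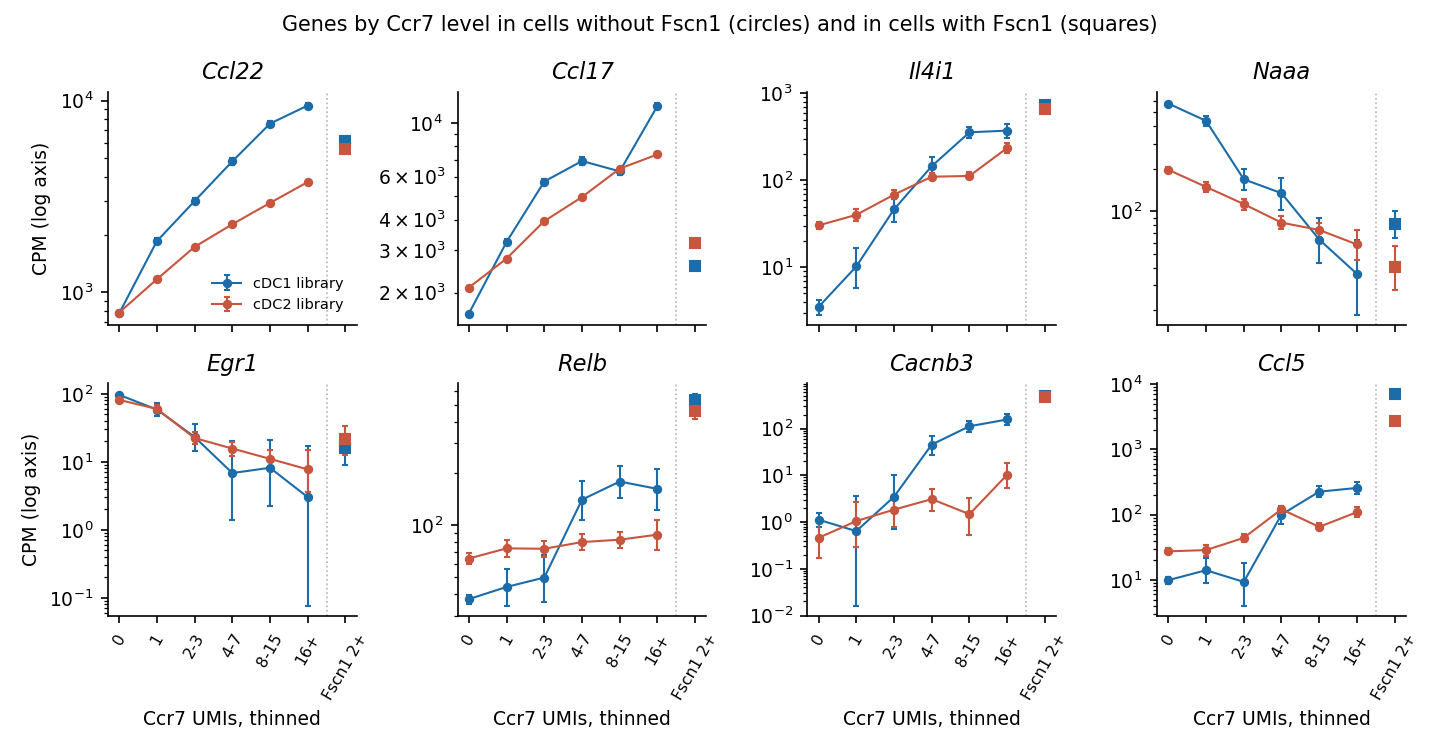
Levels (CPM, log axis) of 8 genes by step of thinned Ccr7 UMIs in dendritic cells with Fscn1 at 0 (circles) and in cells with 2 or more Fscn1 UMIs (squares), per library. Ccl22, Ccl17 and Il4i1 climb with Ccr7 in cells with Fscn1 at 0 and Naaa and Egr1 descend. Cacnb3 in the cDC2 sort averages 10.3 CPM or less in each step without Fscn1, and 474 CPM in the cells with Fscn1. Of the 971 Ccr7-positive cDC2-sort cells without Fscn1, 11 lay in the mature cluster.

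Within single clusters fewer genes passed 2-fold. In cluster 5 of the cDC1 sort (60 against 262 cells) 135 genes were at least 2-fold higher (3.17% of those measured) and 36 lower (0.846%), of which 66 and 8 were called in the whole library. Il4i1 was 14.7-fold higher there, Cd63 6.85-fold, Anxa3 5.49-fold, Ccl5 4.39-fold, Il7r 4.17-fold and Cd274 3.33-fold, while Ccl22 was 1.99-fold, Ccl17 1.22-fold and Ramp3 1.03-fold apart. Of the maturation list, 11 of 22 measured genes were higher inside the cluster. Inside cluster 1 of the cDC2 sort (148 against 545 cells) 21 of 4570 genes were higher and 22 lower. Inside cluster 2 (534 against 144 cells) the counts were 19 and 10 of 4125. Ccl22 kept log2 ratios of 1.22 and 1.18 in those clusters, and Cd274 of 1.18 and 1.20. All these single-cluster values were chosen after seeing the data.

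Both libraries shared a core of genes. Of 4279 genes measured in both, 37 were at least 2-fold higher with Ccr7 in each, which is 14.2% of the 261 higher in the cDC1 sort and 80.4% of the 46 higher in the cDC2 sort. The 40 genes lower in both are 23.0% of 174 and 53.3% of 75. Among own-sort cells 32 were higher and 36 lower in both. Beside the genes above, the shared higher genes included Arap2 (14.2-fold and 2.63-fold), Zfp366, the gene of the transcription factor DC-SCRIPT (3.2-fold and 2.80-fold), and the interleukin-7 receptor gene Il7r (28.0-fold and 2.25-fold). Il7r and Ccl5 are also markers of T and NK cells. In the Ccr7-positive cDC1-sort cells 8 of the 9 T cell markers and 6 of the 8 NK cell markers were at 0. In those of the cDC2 sort 5 of the 9 and 3 of the 8 were at 0.

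Other genes passed 2-fold in 1 library, without a test of the difference. Cacnb3, a calcium channel subunit gene of mature dendritic cells, was 54.6-fold higher in the cDC1 sort (37.0 to 82.7; 61.3 against 1.12 CPM), and stood at 2.84 and 0.460 CPM in the cDC2 sort, under the filter. Anxa3 was 22.8-fold higher in the cDC1 sort and 1.06-fold in the cDC2 sort. Without the 29 mature-cluster cells of the cDC1 sort, Cacnb3 was under the filter of 20 CPM there too. Plet1 was 3.42-fold higher in the cDC2 sort (3.04 to 3.85) and 1.06-fold in the cDC1 sort. Mpp7, a scaffold protein gene, was 4.14-fold higher in the cDC2 sort (3.5 to 4.91) and 2.82-fold in the cDC1 sort, and so belongs to the shared genes.

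**Figure D5:**
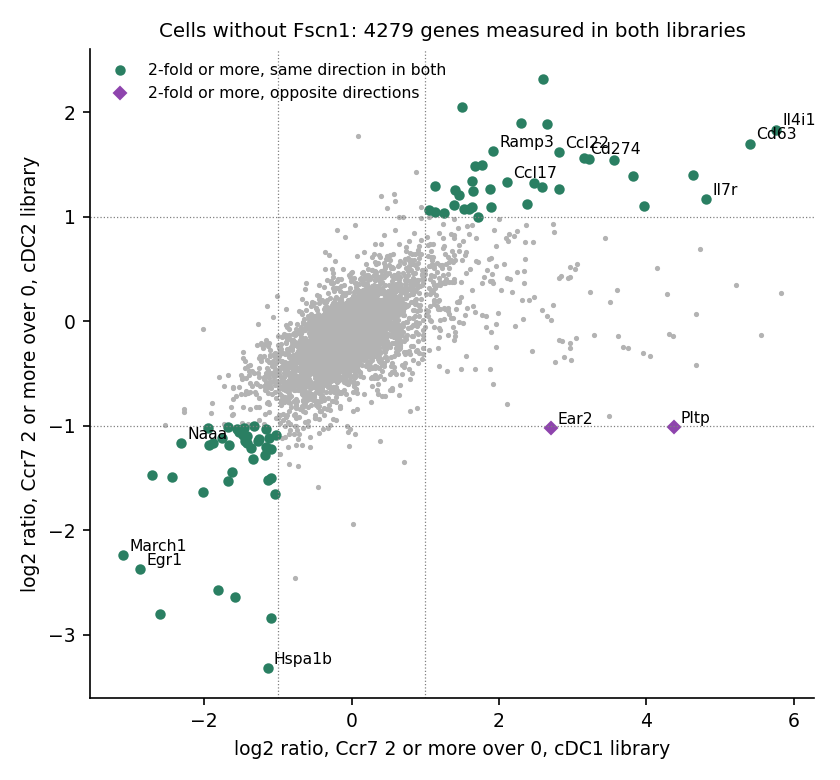
Log2 ratio of each of 4279 genes between Ccr7-positive and Ccr7-negative dendritic cells without Fscn1, in the cDC1 sort (x axis) and the cDC2 sort (y axis). The 77 marked genes pass 2-fold in the same direction in both libraries and 2 pass in opposite directions, and the spread is wider along the x axis, where the smaller group has 141 cells.

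Cells with Fscn1 were then set against Ccr7-positive cells without it. These were 75 against 141 cells in the cDC1 sort and 64 against 971 in the cDC2 sort, and the groups without Fscn1 are the same Ccr7-positive cells as above, so the 2 comparisons share cells. At least 2-fold higher with Fscn1 were 525 of 4717 genes (11.1%) in the cDC1 sort and 664 of 4934 (13.5%) in the cDC2 sort, and 467 (9.9%) and 297 (6.02%) were lower. Among own-sort cells of the cDC1 sort 523 were higher and 403 lower. The Fscn1 cells lay in the mature cluster in 73 and 59 cases, with median depths of 12269 and 10614 UMIs against 13717 and 13376. Ccr7 itself was at 3671 against 1579 CPM in the cDC1 sort and 3548 against 1434 CPM in the cDC2 sort.

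Cacnb3, Nudt17 and Apol7c, which lead the mature cluster, averaged under 3 CPM in the Ccr7-positive cDC2-sort cells without Fscn1. Other maturation genes such as Il4i1 were present there. Of these 971 cells, 11 lay in the mature cluster. Cacnb3 stood at 61.3 CPM before and 510 CPM with Fscn1 in the cDC1 sort (8.33-fold, 6.86 to 10.2), and at 2.84 and 474 CPM in the cDC2 sort (167-fold, 121 to 238). Nudt17 was 9.83-fold and 190-fold higher, and Apol7c 77.8-fold (43.0 to 157) and 491-fold (304 to 850). Of the maturation list, 23 of 30 measured genes passed 2-fold upward in the cDC1 sort and 25 of 31 in the cDC2 sort, with 0 lower. Among all genes 11.1% and 13.5% were higher. In the cDC2 sort 16 of the 31 (2 of 30 in the cDC1 sort) entered only through the Fscn1 cells, where they are high, so these counts partly restate the filter. Within the mature cluster 13 of 31 were higher and 3 lower in the cDC1 sort, and 21 of 31 higher and 0 lower in the cDC2 sort. Of all genes measured in that cluster, 523 of 4743 were higher and 413 lower in the cDC1 sort. In the cDC2 sort 660 of 5327 were higher and 628 lower. Against mature-cluster cells with Fscn1 at 0 only (29 and 11 cells), Cacnb3 was 1.86-fold and 4.25-fold higher and Apol7c 21.8-fold and 6.45-fold.

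The 2 chemokine genes that had climbed with Ccr7 parted at this step. Ccl17 was lower with Fscn1, at 2581 against 7058 CPM in the cDC1 sort (2.73-fold lower, 2.62 to 2.85) and at 3197 against 5283 CPM in the cDC2 sort (1.65-fold lower, 1.59 to 1.72). Ccl22 was 1.13-fold higher in the cDC1 sort (1.10 to 1.17) and 2.33-fold higher in the cDC2 sort (2.26 to 2.40), but in the cDC1 sort its 6148 CPM with Fscn1 lay under the 9432 CPM of the highest Ccr7 step without Fscn1. Ccl5 went from 116 to 6941 CPM in the cDC1 sort and from 80.1 to 2764 CPM in the cDC2 sort, 59.6-fold and 34.5-fold higher. Within the mature cluster of the cDC2 sort Ccl5 had a log2 ratio of -0.17, at 3015 CPM with Fscn1 and 3400 CPM in the 11 cells without.

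Some genes of NF-kB signalling and T cell contact were higher with Fscn1. Relb, the transcription factor subunit of the noncanonical NF-kB pathway, stood at 532 against 116 CPM in the cDC1 sort (4.57-fold, 3.92 to 5.33) and 459 against 79.5 CPM in the cDC2 sort (5.77-fold, 5.13 to 6.49). Of the NF-kB list, 5 of 19 and 4 of 19 genes were at least 2-fold higher and 0 lower, beside 11.1% and 13.5% of all genes higher, including Birc2 (6.28-fold and 5.64-fold) and Traf2 (3.21-fold and 3.26-fold). Of the costimulation and checkpoint list, 3 of 15 were higher and 1 lower in the cDC1 sort, and 7 of 17 and 1 in the cDC2 sort. However, 1 of the 15 and 5 of the 17 entered only through the Fscn1 cells, where they are high. On the NF-kB list 1 and 2 of the 19 did so. These counts thus partly restate the filter. Tnfrsf4, the gene of OX40, was 16.8-fold and 120-fold higher, Tnfrsf9, the gene of 4-1BB, 5.32-fold and 68.0-fold, and Cd200 5.56-fold and 26.1-fold. Tnfrsf4 rests on 16 and 8 UMIs in the cells without Fscn1.

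Some interferon-linked and sterol genes were higher with Fscn1 as well. Il15ra, which presents interleukin-15 to lymphocytes, was 13.4-fold and 30.6-fold higher, and Gbp2 34.1-fold and 42.0-fold. Of the interferon-stimulated list 4 of 9 measured genes were at least 2-fold higher and 2 lower in the cDC1 sort, and 4 of 6 and 0 in the cDC2 sort. However, 3 of the 9 and 3 of the 6 entered only through the Fscn1 cells, where they are high. Within the mature cluster 2 of 10 were higher and 3 lower in the cDC1 sort, and 1 of 8 higher and 1 lower in the cDC2 sort. Beside them, 523 of all 4743 genes there were higher and 413 lower in the cDC1 sort, and 660 and 628 of 5327 in the cDC2 sort. Of the cholesterol list 4 of 9 and 3 of 9 were higher and 0 lower, among them Idi1 (10.3-fold and 14.6-fold) and Hmgcs1 (3.58-fold and 5.04-fold), enzymes of sterol synthesis. Among all genes 11.1% and 13.5% were higher and 9.9% and 6.02% lower. On the cholesterol list 2 of 9 and 4 of 9 entered only through the Fscn1 cells, so the counts of both lists partly restate the filter.

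In the migration machinery, 6 of 23 cytoskeleton genes were at least 2-fold higher and 2 lower in the cDC1 sort, and 5 of 23 and 0 in the cDC2 sort, beside 11.1% and 13.5% of all genes higher and 9.9% and 6.02% lower. In the cDC2 sort 3 of the 23 entered only through the Fscn1 cells, where they are high. Anxa3, an annexin gene, was 9.41-fold and 51.6-fold higher. Of the CCR7 signalling list 2 of 20 were higher and 2 lower in the cDC1 sort, and 2 of 22 higher and 1 lower in the cDC2 sort, at or under the shares of all genes. Among them Stk4, the gene of the kinase MST1, was 2.18-fold and 3-fold higher, Dock8, an activator of CDC42 in migrating dendritic cells, 2.48-fold and 1.88-fold, and Gnai3, a subunit of the G protein that CCR7 couples to, 1.49-fold and 2.18-fold. Rac2, a GTPase gene, was 5.67-fold lower (3.55 to 9.59) and 2.05-fold lower (1.72 to 2.46), but within the mature cluster of the cDC2 sort its log2 ratio was 0.31.

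Some receptors for inflammatory chemokines were lower in the Fscn1 cells. Of the other chemokine and homing receptors, 0 of 10 were at least 2-fold higher and 4 lower in the cDC1 sort, and 0 of 9 and 3 in the cDC2 sort. Among all genes 11.1% and 13.5% were higher and 9.9% and 6.02% lower. However, 4 of the 10 and 1 of the 9 entered only through the cells without Fscn1, where they are high. Ccr1 was not seen in the Fscn1 cells of the cDC1 sort (0 UMIs), at least 18.1-fold lower than its 53.7 CPM before with 0 set to a floor of 3 counts, and 3.26-fold lower in the cDC2 sort. Within the mature cluster 1 of 6 receptors was higher and 0 lower in the cDC1 sort, and 0 of 8 higher and 1 lower in the cDC2 sort, where Ccr1 turned direction (log2 ratio 0.89). All genes there gave 523 higher and 413 lower of 4743 in the cDC1 sort, and 660 and 628 of 5327 in the cDC2 sort.

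Antigen loading genes were lower with Fscn1 as well. Of the MHC class II presentation list, 0 of 14 measured genes were 2-fold or more higher and 9 lower in the cDC1 sort, and 0 and 6 in the cDC2 sort. Among all genes 9.9% and 6.02% were lower and 11.1% and 13.5% higher. Ciita, the master regulator of the class II genes, was 3.57-fold lower (2.34 to 5.65) and 2.52-fold lower (1.76 to 3.72). H2-DMa, a chain of the peptide exchange factor, was 2.80-fold and 2.49-fold lower, and H2-DMb1 2.52-fold and 2.62-fold. Inside the mature cluster 6 of 14 were lower in the cDC1 sort, and 1 was higher and 1 lower in the cDC2 sort. All genes there gave 523 higher and 413 lower of 4743 in the cDC1 sort, and 660 and 628 of 5327 in the cDC2 sort. Ciita was 3.90-fold and 3.93-fold lower in that cluster, and H2-DMa had a log2 ratio of 0.27 in the cDC1 sort.

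Some cell cycle and identity genes were lower too. Of the cell cycle list 0 of 11 and 0 of 12 were at least 2-fold higher and 6 and 6 lower with Fscn1, and Ube2c was not seen in the cDC2-sort Fscn1 cells (0 UMIs), at least 11.8-fold lower. However, 4 of the 11 and 2 of the 12 entered only through the cells without Fscn1, where they are high. For all genes the shares were 9.9% and 6.02% lower and 11.1% and 13.5% higher. Among own-sort cells of the cDC1 sort 2 of 9 cell cycle genes were lower, and within the mature cluster of the cDC2 sort 1 of 9 was higher and 0 lower. Of the cDC2 identity list 8 of 16 genes in the cDC2 sort were lower and 0 higher, among them Clec10a, 4.02-fold lower (2.77 to 6.07). On that list 3 of the 16 entered only through the cells without Fscn1. Within the mature cluster 4 of the 16 were higher and 3 lower, and Clec10a turned direction (log2 ratio 1.06). Of all genes measured in that cluster of the cDC2 sort, 660 of 5327 were higher and 628 lower. Of the cDC1 identity list 6 of 15 in the cDC1 sort were lower and 1 higher, and 10 of 15 were lower among own-sort cells. Plet1, which had accompanied Ccr7 in the cDC2 sort, was 33.4-fold lower with Fscn1 in the cDC1 sort (16.8 to 77.7) and 6.61-fold lower in the cDC2 sort (3.77 to 12.8), where 75% of its 12 UMIs lay in 1 cell.

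Among cells with Fscn1, more Ccr7 went with less of the tissue programme, on few cells. Fscn1 cells were split at their median of 19 Ccr7 UMIs in the cDC1 sort (35 above against 40) and 22 in the cDC2 sort (29 against 35). At least 2-fold higher in the cells richer in Ccr7 were 256 of 4747 genes (5.39%) and 363 of 5098 (7.12%), and 350 (7.37%) and 708 (13.9%) were lower. With another random thinning only 137 of the 256 and 183 of the 350 were called again in the cDC1 sort, and 163 of the 363 and 337 of the 708 in the cDC2 sort, so single genes are weakly determined here. The richer cells were also shallower, with medians of 12010 against 12764 UMIs and of 9801 against 13117 UMIs. All 35 and all 29 richer cells lay in the mature cluster, against 38 of 40 and 30 of 35 of the others. The remaining cDC2-sort cells with less Ccr7 lay in the cDC2-like clusters 2, 7 and 8. The part of this difference in the result was not tested.

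In the cDC1 sort, genes of cDC1 identity were lower in the Fscn1 cells with more Ccr7. Of 15 measured, 8 were at least 2-fold lower and 0 higher, beside 7.37% and 5.39% of all genes. Through the cells with less Ccr7 alone, 3 of the 15 entered. Xcr1 stood at 22.6 CPM with more Ccr7 and 139 CPM with less, 6.17-fold lower (3.18 to 13.4), Naaa was 9.89-fold lower (4.34 to 27.8) and Rab7b 12.5-fold lower (4.65 to 47.3). Itgae rests on 1 UMI in the richer cells, 28.9-fold lower with an interval from 4.87 to 1172. In the cDC2 sort 10 of 16 cDC2 identity genes were lower and 0 higher, beside 13.9% and 7.12% of all genes. However, 10 of the 16 entered only through the cells with less Ccr7, where they are high. As many genes entered this way as were called lower, so the count in the cDC2 sort may restate the filter in full. Cd209a stood at 18.8 against 403 CPM there, 21.4-fold lower (9.03 to 66.5), and Mgl2 at 37.7 against 652 CPM, 17.3-fold lower (9.31 to 36.4).

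Some receptor and class II genes were lower as well. Of the receptor list 0 of 8 were higher and 3 lower in the cDC1 sort, and 1 of 8 higher and 3 lower in the cDC2 sort, the higher one being Cxcr4 (2.36-fold), named after its value was seen. Ccr2 rests on 1 UMI in the richer cells of the cDC2 sort, 18.1-fold lower (3.06 to 731), and Ccr1 on 3 UMIs, 9.72-fold lower (3.18 to 48.4). H2-DMa was 4.34-fold lower in the cDC1 sort (3 to 6.45) and 3.52-fold lower in the cDC2 sort (2.47 to 5.16). Of the class II list 4 of 14 and 10 of 14 were lower and 0 higher. Through the cells with less Ccr7 alone, 2 and 3 of the 8 receptors and 3 and 3 of the 14 class II genes entered. For all genes the shares were 7.37% and 13.9% lower and 5.39% and 7.12% higher. Of the NF-kB list 0 of 19 passed 2-fold in either direction in either library. On the maturation list 2 of 31 were higher and 0 lower in the cDC1 sort and 3 and 2 in the cDC2 sort, with upward shares near those of all genes. Ramp3 was 1.88-fold and 2.38-fold higher and Cd200 1.41-fold and 2.39-fold.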

How the data were processed

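Lung cDC1 and cDC2 sorts were profiled in 1 droplet library each, with a kit that counts 3' ends by UMI, per the labels' protocols. Raw UMI counts per gene and barcode were deposited by the authors. Per the submitters' processing notes they come from Cell Ranger 3.2 on mm10, with Seurat also named, while the file headers give version 3.0.2. The sources used here do not say how barcodes were selected before deposit. Cells were kept from 500 genes and 1000 UMIs upward where mitochondrial UMIs made up 10% or less, which removed 365 and 210 of 2939 and 3045 barcodes. Doublets were not called and stayed in. For shares and distributions, cells were thinned to 5000 UMIs with 1 fixed seed. Levels are summed UMIs of all depths scaled to CPM, with exact Poisson, binomial or conditional binomial intervals. Both libraries were clustered together in scanpy 1.11.5 (2000 variable genes without Ccr7, 30 components, 20 neighbours, Leiden resolution 1). Clusters were named from marker lists. Genes entered from 20 CPM upward in either group, counts of 0 were replaced by 3 counts for bounds, and Ccr7 and Fscn1 were left out of gene counts. The gene, the lists and the tests were chosen with earlier results of these data known. Genes named are Ccr7, Fscn1, list members (up to 4 per list and direction), the 12 largest and 6 smallest ratios per library and comparison at 50 CPM or more, the 6 that differed most between libraries each way, the 10 most like Ccr7 and 5 leading genes per cluster. Some genes that this rule names are not reported here. The scripts were tested on simulated data. Python 3.11.15, numpy 2.4.6 and scipy 1.17.1 were used.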

Additional observations from a re-analysis of the deposited data

Results flagged for a closer look

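Barcodes outside the cell filter, which enter no comparison, also held Ccr7. The 365 removed barcodes of the cDC1 sort stood at 113 CPM (92.3 to 136, from 107 UMIs) and the 210 of the cDC2 sort at 568 CPM (508 to 634, from 327 UMIs), above the 3.16 and 5.22 CPM that a count of 0 would allow. Both values lie under those of the kept cells.

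Before Fscn1, 2 of the genes measured in both libraries passed 2-fold in opposite directions with Ccr7, and they were chosen after their values were seen. Ear2, a ribonuclease gene of monocytes and macrophages, had log2 ratios of 2.71 in the cDC1 sort and -1.02 in the cDC2 sort. Pltp, a phospholipid transfer protein gene, had log2 ratios of 4.38 and -1.02, with 38.9% of its cDC1-sort UMIs in 1 cell. The difference between the libraries was not tested for either gene, and among own-sort cells of the cDC1 sort both were under the filter of 20 CPM.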

How the results depend on the processing

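No paired analysis was possible because the labels give no replicate numbers and each sort has 1 library. Of the alternatives to the main values 121 stayed close and 52 moved. The library ratio of Ccr7 was 3.32 at a mitochondrial limit of 5%, 3.42 in dendritic clusters, 3.10 with thinned cells weighted equally and 4.07 in own-sort clusters. The Ccr7-positive share was 7.13% and 27.7% (cDC1 and cDC2 sort) at 2000 UMIs, 10.5% and 48.6% at 8000, 47.0% in dendritic clusters of the cDC2 sort, and 7.88% and 47.9% in own-sort clusters. Among cDC2-sort Ccr7-positive cells 88.8% had no Fscn1 in all their UMIs. The mature cluster of the cDC1 sort stood at 3395 CPM at resolution 0.5 and 3453 CPM at resolution 2, where 6 of the 10 genes most like Ccr7 recurred.

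Gene counts (higher and lower) moved with the filter, the cut and the cells compared. At 5 CPM they were 551 and 710 (before Fscn1, cDC1 sort), 90 and 362 (cDC2 sort), 1030 and 1058, and 1373 and 639 (with Fscn1), 604 and 902, and 589 and 1156 (by Ccr7 among Fscn1 cells). At 50 CPM they were 172 and 106 (before, cDC1), 31 lower (before, cDC2), 287 and 225, and 322 and 163 (with Fscn1), 59 and 95, and 134 and 247 (among Fscn1 cells). With a Ccr7 cut of 4, 405 and 173 genes were lower before Fscn1. On thinned UMIs 355 were lower before Fscn1 in the cDC1 sort, 524 were lower with Fscn1 in the cDC2 sort, and among Fscn1 cells 596 and 640 differed in the cDC1 sort and 613 were higher in the cDC2 sort. Within cluster 5 the counts were 135 and 36, within cluster 1 they were 21 and 22, within cluster 2 they were 19 and 10, and within the mature cluster of the cDC2 sort 628 were lower. The cut of 4 and the alternative of no Fscn1 in all UMIs were not run among Fscn1 cells.

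Of the named genes 1258 alternative values stayed close, 362 moved and 20 turned direction (log2 ratios follow; the cause was not tested). Before Fscn1 within cluster 5 these were Egr1 0.52, Egr3 0.92, Hspa1a 1.79, Hspa1b 2.16 and Ccr1 -0.45. In the cDC2 sort they were Irf8 0.21 in own-sort clusters and 1.80 within cluster 2, and Hspa1a 0.24, Hspa1b 0.22 and Ear2 0.29 within cluster 2. With Fscn1 in the cDC1 sort they were Ube2c 0.87 without cycling clusters and 0.18 in own-sort clusters, and within the mature cluster H2-DMa 0.27 and H2-DMb1 0.23. In the mature cluster of the cDC2 sort they were Ccl5 -0.17, Hspa1a -0.72, Hspa1b -1.19, Ccr1 0.89, Rac2 0.31 and Clec10a 1.06. Own-sort, single-cluster and mature-cluster alternatives were chosen after seeing the data.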
